A study of Caenorhabditis elegans with 2 samples.

Results

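The homeobox genes described here are 70 of the 19973 protein-coding genes of Caenorhabditis elegans. They were taken by name from the WBcel235 annotation: 62 genes carry a ceh- number, without ceh-22, and the other 8 are lin-39, mab-5, egl-5, nob-1, php-3, vab-7, unc-4 and mec-3. ChIP-seq, which sequences the DNA fragments recovered with a chromatin protein, was done on eGFP-DAF-12 in whole L3 larvae of strain OP222. The strain carries the genotype unc-119(ed3) III together with the insertion wgIs222, and the animals were males and females pooled. The labels give 1 group of 2 biological replicates and no second genotype, stage or treatment. An input or mock sample was not analysed here, so no comparison between groups exists and no p-value is given. The labels do not say which promoter drives the insertion or whether the native daf-12 gene is intact. Because whole animals were used, strong binding in few cells and weak binding in many cannot be told apart.

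Homeobox genes encode transcription factors that bind DNA through a homeodomain. In C. elegans the Hox members pattern the body axis and direct postembryonic divisions, and many others set and maintain the identity of single neuron classes. DAF-12 is a nuclear receptor whose ligands, the dafachronic acids, are made with the cytochrome P450 DAF-9, and it governs the choice between dauer arrest and reproductive growth and the timing of stage-specific cell fates around L3.

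Sequences are given first for ceh-38, whose region was the strongest among the homeobox genes. The divergent genes ceh-38 and malt-1, which encodes the worm relative of the paracaspase MALT1, are separated by 225 bases at II:6951301-6951525 in WBcel235 (ce11), shown on the plus strand, which is the coding strand of ceh-38. Capitals mark the run GAGAG on the other strand, read here as CTCTC, 80 bp before the first ceh-38 start. The 29 bases at II:6951643-6951671, also on the plus strand, lie downstream in the same region. Capitals there mark AGTGTG on the minus strand, read as CACACT and 85 bp from the summit, overlapping 1 CTCTC, and a further CTCTC.

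ceh-38 upstream stretch: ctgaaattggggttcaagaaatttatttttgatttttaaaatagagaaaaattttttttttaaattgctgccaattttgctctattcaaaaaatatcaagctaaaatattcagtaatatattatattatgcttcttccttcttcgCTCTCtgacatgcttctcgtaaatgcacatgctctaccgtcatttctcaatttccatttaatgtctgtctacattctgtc
ceh-38 hexamer site: gcgcggcCACACTCTCcCTCTCcctgtgg

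For the next members, 101 bases centred on the pooled summit are shown on each gene's own strand, chosen among regions that touch no UTR because they hold a searched motif near the summit (ceh-74, ceh-7, lin-39) or mark the anterior Hox gene (ceh-13). The positions are V:14178303-14178403 for ceh-74 (plus), II:8704722-8704822 for ceh-7 (minus), III:7532106-7532206 for lin-39 (minus) and III:7555195-7555295 for ceh-13 (plus). Capitals mark AGTACA in ceh-74, GAGAG and AGTGTG in ceh-7, and GAGAG in lin-39; ceh-13 holds none of the searched letters in this window.

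ceh-74 summit: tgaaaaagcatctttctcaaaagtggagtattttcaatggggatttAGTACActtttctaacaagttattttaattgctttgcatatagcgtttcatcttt
ceh-7 summit: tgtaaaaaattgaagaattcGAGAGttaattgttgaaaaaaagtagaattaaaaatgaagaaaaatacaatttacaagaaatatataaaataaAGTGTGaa
lin-39 summit: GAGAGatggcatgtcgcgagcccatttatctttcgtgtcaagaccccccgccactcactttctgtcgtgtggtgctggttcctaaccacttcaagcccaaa
ceh-13 summit: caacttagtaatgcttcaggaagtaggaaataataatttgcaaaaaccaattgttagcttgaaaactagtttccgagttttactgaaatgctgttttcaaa

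Each deposited list, 1 for each replicate and 1 for both pooled, held 30000 regions ordered by a signal whose scale is not stated. The lists run deep into background: the signal fell from 177.5 at the strongest pooled region to 33.5 at rank 150, 21.6 at rank 1000 and 9.10 at the last. The authors' 150 peaks that passed IDR, a measure of agreement in rank between replicates, were the 150 pooled regions with the highest signal. Each gene was given its best region, the one of highest signal with its summit within 2 kb of an annotated start or inside the gene. This was done in each list, so the best regions of a gene can lie at different places. Signals sit on a different scale in each list, so ranks were used across lists. Read numbers were not given for any region, so the depth is unknown.

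Among the homeobox genes, 1 gene met each of the following limits, and ceh-5 lay just below the first of them. An IDR peak lay near ceh-38 and near no other member, 1 of 70 (1.43%), beside 0.881% of all protein-coding genes. It was also the only member with regions in the highest 1000 of both replicates at the same place, with summits within 100 bp of each other, again 1.43% beside 0.831% of all genes. Both shares rest on 1 gene and say nothing of the group.

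At wider limits the members' shares were above those of all genes in the pooled list, and on either side of them in the single replicates. A pooled region in the highest 1000 was found for 5 members (7.14%) beside 5.24% of all protein-coding genes, and one in the highest 3000 for 15 members (21.4%) beside 14.7%. The replicates taken singly placed 4 members (5.71%) in the highest 1000 of replicate 1, beside 5.37% of all genes, and 3 members (4.29%) in that of replicate 2, beside 5.44%. Any pooled region at all was found for 58 members (82.9%) beside 77.8%. Between these limits the shares were 32.9% beside 23.1% at rank 5000, 45.7% beside 32.2% at 7500 and 51.4% beside 40.1% at 10000. The median best pooled rank was 8988.5 for the members and 13376 for all genes. The members' search span was longer, as given below, and the cause was not tested.

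The median best signal of the members, with unlisted genes ranked lowest, was 13.9 in the pooled list beside 12.4 for all genes. In replicate 1 it was 7.41 beside 6.89, and in replicate 2 it was 8.84 beside 8.16. The difference in median signal was thus 0.16 on the log2 scale in the pooled list, 0.10 in replicate 1 and 0.11 in replicate 2. It came with a longer search span, a median of 4948.5 bp for the members and 4182 bp for all genes. With starts alone searched, where both median spans were 4001 bp, the pooled difference was 0.12. The medians were then 7.02 beside 6.55 in replicate 1, but 7.82 beside 7.79, nearly equal, in replicate 2. In the pooled list the difference was 0.19 with windows of 1 kb and 0.0069 with windows of 5 kb. Regions per 10 kb of searched sequence numbered 3.32 for the members and 3.02 for all genes in the pooled list.

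**Figure D1:**
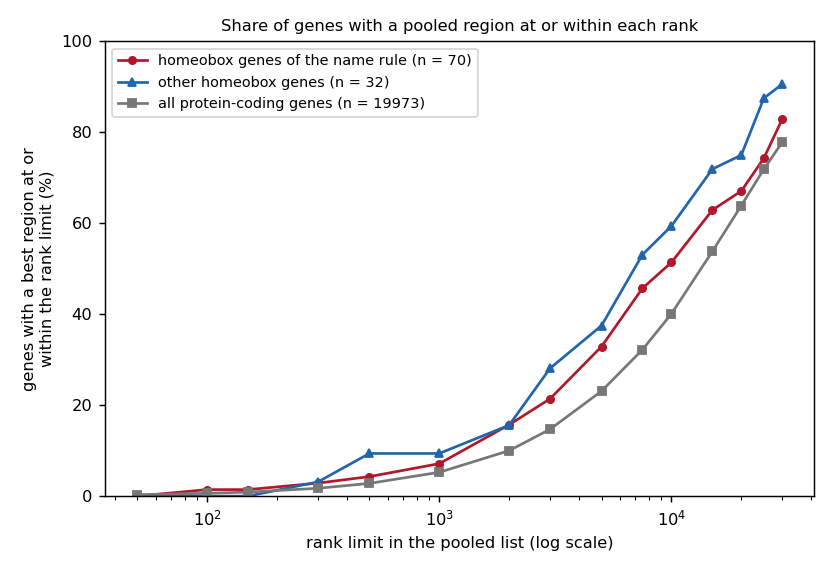
Share of genes in percent (vertical) whose best pooled region is at or within a rank limit (horizontal, log axis), for the 70 homeobox genes (circles), 32 other homeobox genes (triangles) and all protein-coding genes (squares). At rank 1000 the shares are 7.14%, 9.38% and 5.24%. At rank 7500 they are 45.7%, 53.1% and 32.2%, and over the whole list they are 82.9%, 90.6% and 77.8%.

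ceh-38 encodes a ONECUT homeodomain protein, 1 of a family that in worms includes broadly neuronal factors. The gene lies at II:6951526-6955409 on the plus strand with 24 annotated transcripts and 11 distinct starts. Its best region had a signal of 25.1 in replicate 1 (rank 66), 23.9 in replicate 2 (rank 75) and 48.3 in the pooled list (rank 64). All 3 lists therefore put it among their highest 150, and the replicate summits lay 39 bp apart. The pooled summit at II:6951565 fell in the annotated 5' UTR, 39 bp downstream of the first start and 54 bp upstream of the next. The start of malt-1 lay 265 bp away on the other side, so the same region is within reach of both genes.

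ceh-5, an NK-related gene, fell just below the IDR peaks. Its pooled region had a signal of 32.7 at rank 165, where the lowest IDR peak had 33.5. The same region had a signal of 22.1 in replicate 1 (rank 97). Replicate 2 held no region within 100 bp of it, and its best region for ceh-5 was another one 840 bp away with a signal of 9.35 (rank 8431). The ceh-5 region thus stood high in replicate 1 and in the pool that contains replicate 1, but not in replicate 2. Its summit was 1708 bp upstream of ceh-5, inside the 3' UTR of eat-16, which encodes a regulator of G protein signalling, and an intron of ocrl-1, which encodes an inositol phosphatase.

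Below these, ceh-74, whose class was not assigned, had a region at pooled rank 393 with a signal of 25.8. The best signals were 9.61 in replicate 1 (rank 4118) and 13.7 in replicate 2 (rank 1292), with summits 30 bp apart. The replicates thus agreed on the place and put it lower than the pool did. The summit was in an intron of ceh-74, 274 bp past its start, and also in an intron of cest-2.3.

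ceh-7 and ceh-48 had almost the same pooled signal. That of ceh-7 was 23.3 (rank 647), with best signals of 7.23 in replicate 1 (rank 11752) and 14.4 in replicate 2 (rank 958). At the pooled summit itself replicate 1 had 5.59 (rank 22399), so the region was high in replicate 2 only. The summit lay 943 bp upstream of ceh-7 but 52 bp from the start of prx-5, which encodes the import receptor for peroxisomal matrix proteins. ceh-48, a ONECUT gene expressed throughout the nervous system, had a pooled signal of 23.3 (rank 649), with 11.9 in replicate 1 (rank 1448) and 8.72 in replicate 2 (rank 10764). Its summit was in the 3' UTR, and with starts alone searched its best pooled signal was 11.5.

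**Figure D2:**
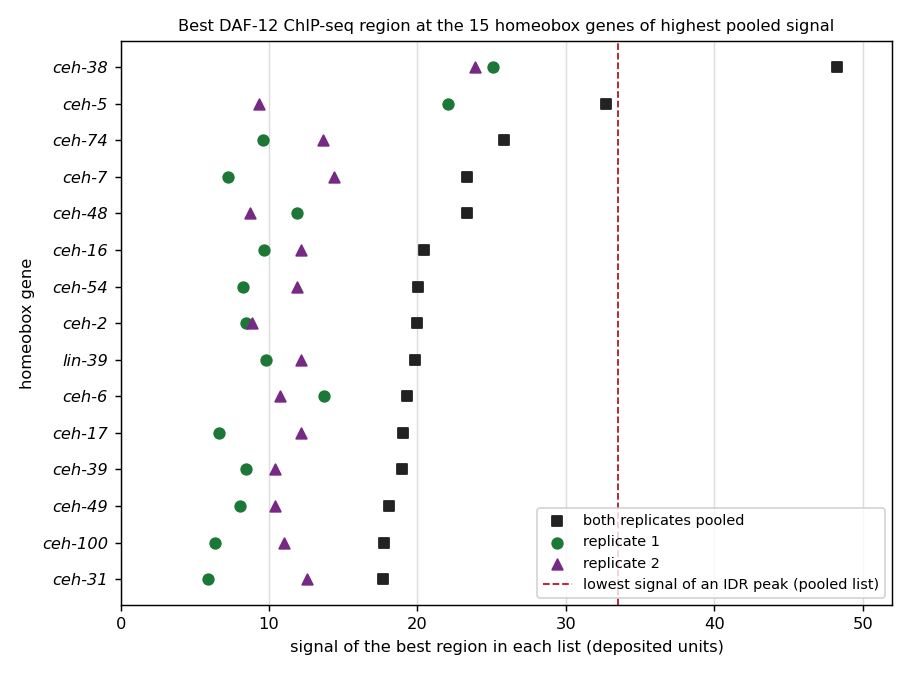
Deposited signal of the best region (horizontal) for each of the 15 homeobox genes with the highest pooled signal (vertical), with the pooled list as squares, replicate 1 as circles and replicate 2 as triangles, and the lowest IDR signal of 33.5 dashed. ceh-38 is highest in all 3 lists, while ceh-5 is high in the pooled list and replicate 1 and at 9.35 in replicate 2.

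The remaining members within pooled rank 3000 were spread over several classes. ceh-16, the worm engrailed gene, which acts in the seam cells of the epidermis, had an intronic region with a pooled signal of 20.4 (rank 1344). Its best signals were 9.68 in replicate 1 and 12.1 in replicate 2. ceh-54 had a pooled signal of 20.03 (rank 1487), with best signals of 8.24 in replicate 1 and 11.9 in replicate 2. The ceh-54 summit lay 93 bp upstream of its start and 2593 bp from the start of daf-9, the P450 gene of the DAF-12 ligand pathway. The best region ranked higher in replicate 2 than in replicate 1, at 2566 against 4001 for ceh-16 and 2926 against 7670 for ceh-54. These were different places, 760 bp apart for ceh-16 and 1711 bp apart for ceh-54. At the ceh-16 pooled summit replicate 1 had 9.68 (rank 4001) and replicate 2 had 9.49 (rank 7922). At the ceh-54 pooled summit replicate 1 had 6.75 (rank 14276) and replicate 2 had 11.9 (rank 2926). ceh-2, the worm member of the empty spiracles family, had an intronic region at pooled rank 1517 and replicate summits 31 bp apart. Its signals were 19.96 in the pooled list, 8.48 in replicate 1 and 8.88 in replicate 2.

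ceh-17, the worm relative of Phox2, which acts in the ALA and SIA neurons, had a pooled signal of 19.1 (rank 1991), with 6.62 in replicate 1 and 12.2 in replicate 2. The replicate summits were 76 bp apart, and idpp-10 had the nearest start. ceh-100 and ceh-31, a BarH gene, closed the set at pooled signals of 17.7, at ranks 2911 and 2942. For ceh-31 the best signal was 5.90 in replicate 1 (rank 19959) and 12.6 in replicate 2 (rank 2109). The best ceh-100 signals were 6.37 in replicate 1 and 10.99 in replicate 2, at places 4009 bp apart and neither at the pooled summit. At the pooled summit replicate 1 had 5.49 (rank 23242) and replicate 2 held no region within 100 bp. For each of these 3 genes the best region of replicate 2 ranked higher than the best region of replicate 1, which for ceh-100 was a different region. On the far side of rank 3000 came ceh-37, an Otx gene of the AWB neurons, at 17.5 (rank 3100).

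Agreement between the replicates was limited. Of the 58 members with a region in both replicate lists, 9 had their best regions within 100 bp of each other (15.5%), beside 10.5% of 12871 genes, and the median gap was 960 bp. The 9 were ceh-2, ceh-17, ceh-31, ceh-33, ceh-38, ceh-39, ceh-74, ceh-87 and egl-5. The pooled best region was matched within 100 bp in both replicates for 18 of 58 members (31.0%), beside 21.4% of all genes with a pooled region. For 30 members it was matched in 1 replicate and for 10 in neither. Over those 18 the log2 ratio of replicate 1 to replicate 2 signal had a mean of -0.14 and an SD of 0.53, beside -0.21 and 0.59 over 3325 genes. The mean includes the difference in scale between the lists, whose median signals were 6.62 in replicate 1 and 7.84 in replicate 2. Among the highest 1000, ceh-5, ceh-6 and ceh-13 were reached in replicate 1 only and ceh-7 and mec-3 in replicate 2 only.

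**Figure D3:**
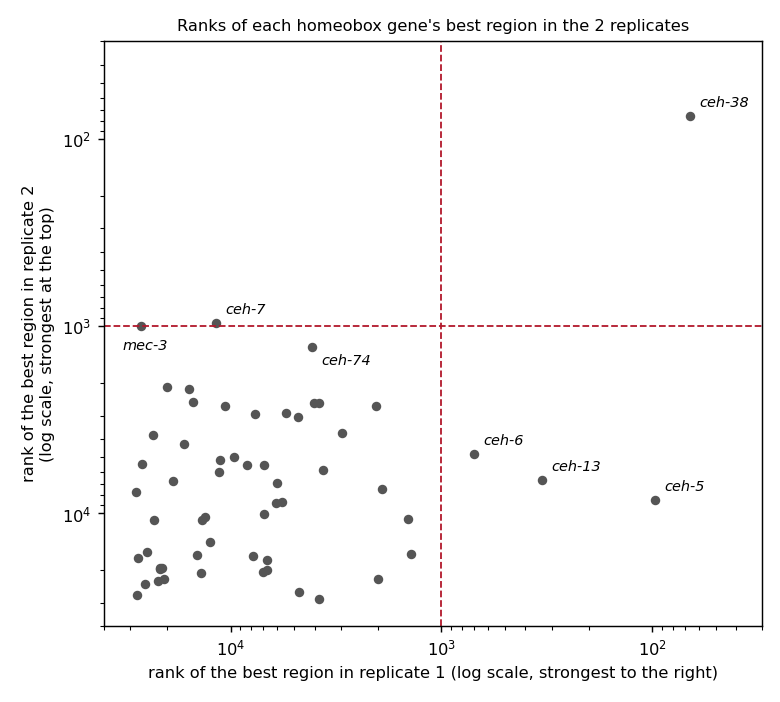
Rank of each homeobox gene's best region in replicate 1 (horizontal) against that in replicate 2 (vertical), both on log axes with the strongest ranks at the upper right and rank 1000 dashed. ceh-38, at ranks 66 and 75, is the only gene inside the highest 1000 of both lists.

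The 6 Hox members all had a pooled region, beside 77.8% of all genes, and 1 was within rank 3000, beside 14.7%. Their median pooled signal was 14.6. lin-39, the mid-body Hox gene required for the vulval precursor cells, was highest at 19.8 (rank 1589), with 9.78 in replicate 1 (rank 3829) and 12.1 in replicate 2 (rank 2556). The replicate bests lay 726 bp apart, and the pooled summit was intronic, 2649 bp from the nearest start. ceh-13, the anterior Hox gene of the labial group, had 15.7 in the pooled list (rank 5316), 15.7 in replicate 1 (rank 334) and 9.93 in replicate 2 (rank 6664). Its replicate 1 and pooled summits lay 415 bp or less upstream of the start, and the replicate 2 summit was 1089 bp from that of replicate 1. ceh-13 was thus a strong region in replicate 1 alone.

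The remaining Hox genes were below lin-39 and ceh-13 in the pooled list and in replicate 1, while in replicate 2 mab-5 was above ceh-13. mab-5, which acts in the posterior body including the migrating Q neuroblasts, had 14.02 in the pooled list (rank 8670), 7.35 in replicate 1 and 10.5 in replicate 2. egl-5, the Abdominal-B type gene of the tail, had 15.1 in the pooled list (rank 6396), 4.97 in replicate 1 (rank 28089) and 9.56 in replicate 2. The egl-5 summits of the replicates were 67 bp apart, in an intron, although replicate 1 placed them near the end of its list. nob-1 and php-3, neighbouring posterior Hox genes, shared a pooled region of 9.85 (rank 25234) and a replicate 2 region of 7.09, so their values are not independent. In replicate 1 their bests were 5.76 and 5.71. vab-7, the even-skipped gene, had 10.4 in the pooled list (rank 22096), 8.76 in replicate 1 and 9.26 in replicate 2.

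The 292.5 kb from lin-39 through ceh-13 and mab-5 to egl-5 (III:7526641-7819141) held 101 pooled regions, 3.45 per 10 kb beside 2.99 over the genome. It held 0 IDR peaks, where the genome had 0.015 per 10 kb, a rate too low for this 0 to set the stretch apart. Its highest pooled regions were at other genes, 1897 bp from a start of ncl-1 (signal 21.8, rank 941) and 697 bp from lin-13 (21.8, rank 959). The lin-39 region came next. In replicate 1 a region of signal 15.4 (rank 356) lay 6 bp beyond the annotated end of mab-5 and more than 2 kb from its start, just outside the rule. Replicate 2 held no region within 100 bp of it.

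**Figure D4:**
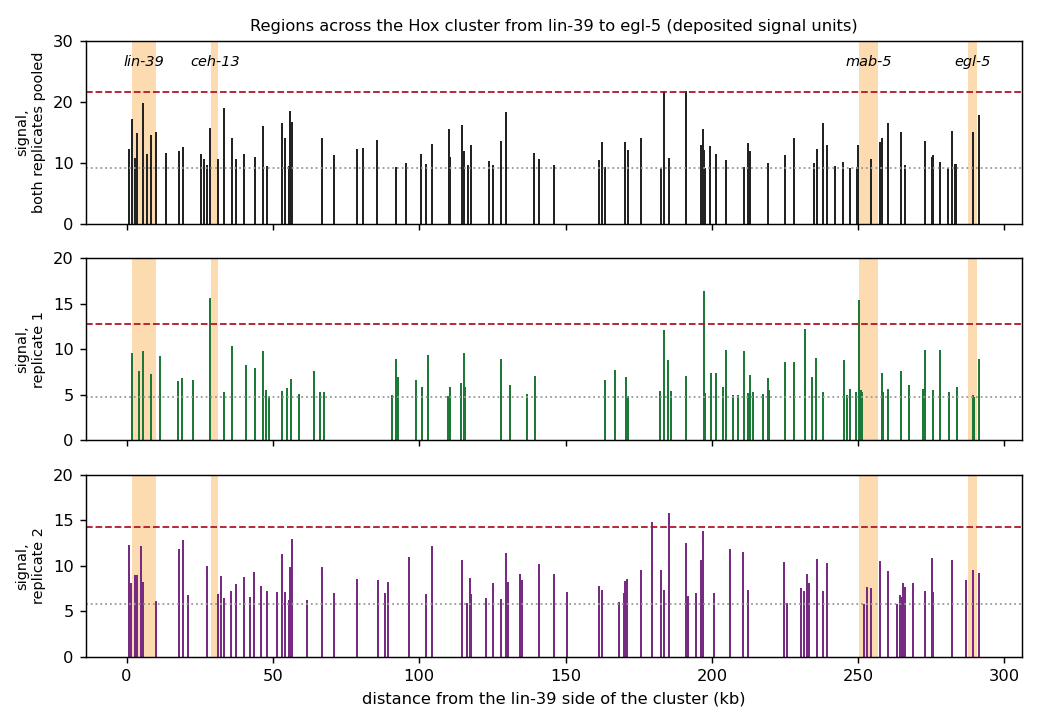
Deposited signal of each region (vertical) against distance along the Hox cluster in kb (horizontal) in 3 panels, for the pooled list, replicate 1 and replicate 2, with the Hox genes shaded orange, the signal at rank 1000 dashed and the list's floor dotted. The 2 pooled regions at the dashed line, both of 21.8, lie between ceh-13 and mab-5, and in replicate 1 the ceh-13 region stands above it at 15.7.

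PBC proteins are the cofactors with which Hox proteins bind DNA. ceh-20, the main PBC gene of the worm, had 16.5 in the pooled list (rank 4192), 6.51 in replicate 1 (rank 15729) and 12.5 in replicate 2 (rank 2175). ceh-60, a PBC gene that acts in intestinal yolk production, had 17.3 in the pooled list (rank 3334), 11.1 in replicate 1 (rank 2010) and 6.69 in replicate 2 (rank 22431). ceh-40 had 9.48 in the pooled list and 8.26 in replicate 1, and was not listed in replicate 2. The replicates thus put the best regions of ceh-20 and ceh-60 in opposite order. The replicate bests were at different places, 1486 bp apart for ceh-20 and 147 bp apart for ceh-60. The ceh-60 pooled summit was intronic with the ets-4 start nearest, and with starts alone searched the best pooled signal of ceh-60 was 10.2.

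The CUT and ONECUT genes had the highest class median in the pooled list, 18.5, but not in either replicate. Within pooled rank 3000 lay 4 of their 6 members, ceh-38, ceh-48, ceh-39 and ceh-49, beside 14.7% of all genes, a description of a small class. ceh-39, which acts as an X-chromosome signal in sex determination, had 18.9 in the pooled list (rank 2052), 8.47 in replicate 1 and 10.4 in replicate 2, with replicate summits 7 bp apart. ceh-49 had 18.1 (rank 2661), 8.06 and 10.4, and its summit lay in the 3' UTR of ttn-1, the titin gene. ceh-21 and ceh-41 neighbour ceh-39 on chromosome X and had no pooled region. They shared a replicate 1 region of 9.28 (rank 4792), and in replicate 2 ceh-21 had 11.8 (rank 3036) and ceh-41 was not listed. The class median was 9.28 in replicate 1, where the POU genes had 11.2, and 10.4 in replicate 2, where the LIM genes had 11.8.

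Of the 14 NK and related genes, 11 had a pooled region, beside 77.8% of all genes, 1 was within rank 1000, beside 5.24%, and 4 within rank 3000, beside 14.7%. Their median was 14.5. ceh-5, ceh-16, ceh-2 and ceh-31 were the 4. The POU genes were ceh-6, of the excretory cell and other tissues, and ceh-18, of the gonadal sheath. ceh-6 had 19.3 in the pooled list (rank 1876), 13.7 in replicate 1 (rank 700) and 10.7 in replicate 2 (rank 4784), with replicate bests 2837 bp apart. ceh-18 had 16.6, 8.77 and 9.85. Neither gene had replicate bests at the same place.

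The LIM genes are ceh-14, of the AFD and tail sensory neurons, and mec-3, of the touch receptor neurons. mec-3 had 12.8 in the pooled list (rank 12238), 5.12 in replicate 1 (rank 26648) and 14.3 in replicate 2 (rank 997), at 1539 bp upstream with the ugt-43 start nearer. ceh-14 had 15.1, 8.90 and 9.28. The best mec-3 region was therefore among the highest 1000 in replicate 2 and near the end of the list in replicate 1. These were different regions, 1150 bp apart, and replicate 1 held no region within 100 bp of the pooled summit. The 7 paired-like genes had a median of 12.9, with unc-4, which specifies the synaptic inputs of VA motor neurons, at 12.6 in the pooled list, 8.20 in replicate 1 and 7.50 in replicate 2.

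The 3 genes of the sine oculis class had the lowest class median in the pooled list, 10.1, and in replicate 2, 6.22. In replicate 1 their median was 6.95, above 6.56 for the Hox genes. ceh-33 had 17.2, ceh-32 had 10.1 and ceh-34, which specifies pharyngeal neurons, had 9.11 (rank 29945), the lowest pooled value of any listed member. ceh-53 at 9.16 and ceh-93 at 9.86 were also near the floor. The 26 genes given no class had a median of 12.4. Of these, 20 were listed, beside 77.8% of all genes, and 2 were within rank 1000, ceh-74 and ceh-7, beside 5.24%.

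**Figure D5:**
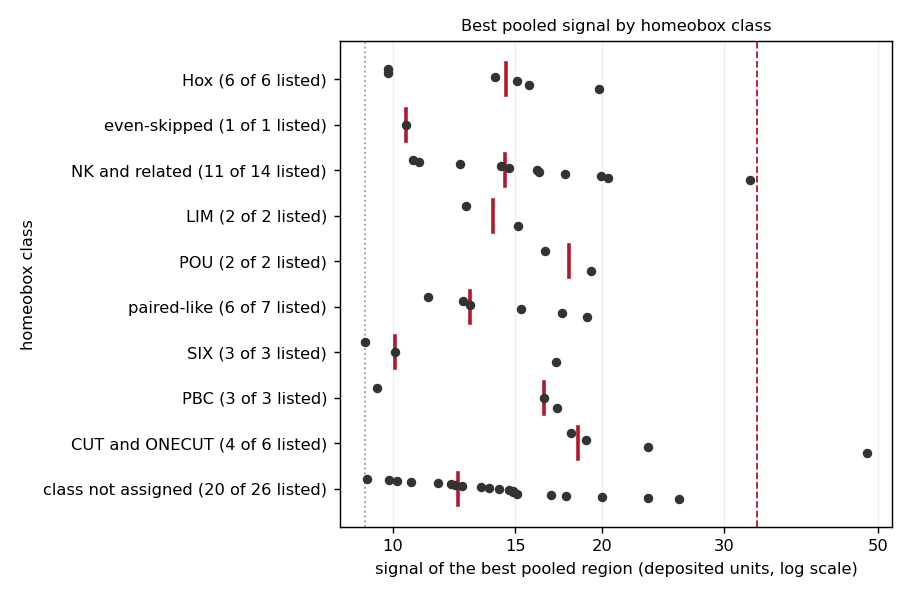
Pooled signal of the best region (horizontal, log axis) for each homeobox gene by class (vertical), with the class median as a red bar, unlisted genes counted as lowest, the list's floor of 9.10 dotted and the lowest IDR signal of 33.5 dashed. CUT and ONECUT has the highest pooled median, 18.5, and ceh-38 is the only point above the dashed line.

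Among all members, 12 had no pooled region: ceh-10, ceh-19, ceh-21, ceh-24, ceh-41, ceh-51, ceh-57, ceh-58, ceh-83, ceh-84, ceh-88 and ceh-99. ceh-10 acts in the AIY interneurons and ceh-51 in embryonic mesoderm. Replicate 1 lacked 6 of the 70 members, beside 4501 of all 19973 genes, and replicate 2 lacked 9, beside 4142. All 3 lists held 51 members, and only ceh-51 and ceh-84 were in none. Neither of these last counts was made for all genes. The pooled best signal of the 58 listed members ran from 9.11 to 48.3 with a median of 14.9, that in replicate 1 from 4.80 to 25.1 with a median of 7.88, and that in replicate 2 from 5.94 to 23.9 with a median of 9.56. An unlisted gene had no region above the floor, which was 9.10 in the pooled list, 4.79 in replicate 1 and 5.80 in replicate 2.

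Most best regions of homeobox genes were not at a start. Their median distance from the nearest start of the gene was 1337.5 bp, beside 1089 bp for all listed genes, and 9 of 58 (15.5%) were within 500 bp, beside 25.7%. Introns held 19 of the 58 (32.8%), beside 23.3% of all listed genes, and coding exons 4 (6.90%), beside 15.9%. The members' search span was longer, as given above, and its part in these shares was not tested. Upstream positions held 22 (37.9%), beside 43.5%. The member's own start was the nearest for 42 of 58 (72.4%), beside 66.9% of all listed genes, and another gene's start was nearer for the other 16. The summit lay inside another protein-coding gene for 9 of the 58 members, a count not made over all genes, so no share can be set beside it. Among them were ceh-5, ceh-49, ceh-74 and ceh-100, whose summit was in the 5' UTR of lips-15, which is named as a lipase gene.

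Motif shares at the members lay near those of the pooled list as a whole and below those of the IDR peaks. AGTGTG and AGTGCA are hexamers reported for DAF-12 response elements, and both strands were searched within 50 bp of the summit. Either was present in 3 of 56 distinct member regions (5.36%), beside 6.91% of all 30000 pooled regions and 22% of the 150 IDR peaks. Of the 3, ceh-7 held AGTGTG, while AGTGCA was found at ceh-37 and ceh-14. The related letters AGTACA were present in 1 region (1.79%), that of ceh-74, beside 4.20% of all regions and 10.7% of IDR peaks. AGTGCG was present in 0, beside 1.63% and 8%. GAGAG was present in 8 regions (14.3%), beside 13.2% and 46.7%. Median GC was 30.7% for the members, 33.7% for all regions and 47.5% for IDR peaks.

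The ceh-38 region of 344 bp (II:6951393-6951736) held no hexamer within 50 bp of its summit. Over its whole length it held 1 AGTGTG, in the 29-base site printed above, and 3 GAGAG, of which 1 overlaps the AGTGTG. Of all 30000 pooled regions taken whole, 12.5% held AGTGTG and 37.4% held GAGAG. The stretch between ceh-38 and malt-1 held GAGAG once and none of the hexamers. Of all upstream stretches of that length, 32.3% held GAGAG, 9.27% AGTGTG, 7.11% AGTGCA, 4.34% AGTGCG and 8.34% AGTACA. A match is a stretch of letters and says nothing of binding.

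The members were spread over the 6 nuclear chromosomes. Of the 15 within pooled rank 3000, 4 of 8 members on chromosome I were included, 3 of 14 on II, 2 of 14 on III, 1 of 5 on IV, 2 of 11 on V and 3 of 18 on X. The corresponding shares of all genes ran from 12.3% on II to 20.4% on X. The chromosome I genes were ceh-2, ceh-5, ceh-6 and ceh-17. With 5 to 18 members on a chromosome these counts are a description only.

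A further list of 32 homeobox genes outside the naming rule, among them ceh-22, unc-86 and pax-3, was read in the same way. No IDR peak lay near any of them (0 of 32), beside 0.881% of all genes. In the pooled highest 1000 were 3 (9.38%), beside 5.24% of all genes. Their median pooled best signal was 14.7, beside 13.9 for the members, with a longer median search span of 6738 bp. The strongest were unc-62, the Meis-type partner of PBC proteins, at 30.2 (rank 217), pax-3 at 26.5 (rank 352) and ceh-22, an NK gene of pharyngeal muscle, at 25.7 (rank 402). pax-3 had ranks of 505 and 239 in the replicates and unc-62 had 160 and 6231. None of the 32 had regions in the highest 1000 of both replicates within 100 bp of each other, beside 0.831% of all genes. At such shares a count of 0 among 32 genes says nothing of the group.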

How the data were processed

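ChIP-seq of eGFP-DAF-12 was measured in 2 biological replicates, grouped and numbered by their labels. The authors deposited, for each replicate and for both pooled, a list of regions with a signal for each, in ce11 and ce10, as well as the peaks that passed IDR. Per the deposited notes, the lists were derived from read alignments together with a control alignment, which was not used here. Aligner, peak caller, IDR threshold and the scale of the signal are not given in the sources used here. Only the ce11 lists were used, with WBcel235 and Ensembl release 115. Depth is unknown, so no interval is given.

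Members and lists were chosen with earlier results of these data known. The genes named in full were those with an IDR peak or in the highest 1000 of both replicates, the 15 highest and 5 lowest by pooled signal, those the rule names, ceh-13, the PBC, CUT and ONECUT genes, and those missing from a list; other genes were named after their values were seen. Best regions, ranks and motif matches were computed in Python 3.11.15 with numpy 2.4.6 and pandas 2.3.3, by code tested on simulated data, and drawn with matplotlib 3.10.9. No test was made, since there is 1 group. Windows, rank limits, tolerances, motif widths and single replicates were varied. The ce10 lists were left out because the annotation is of ce11.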

Additional observations from a re-analysis of the deposited data

How the results depend on the processing

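Of 34 alternative values of the 4 summary results, 21 stayed within the limits set for them and 13 moved. For counts the limit was a fold change that any move from a count of 1 exceeds. For the log2 difference it was the SD between the replicates, 0.0073, and both replicates lay further than that from the pooled value. The tally is therefore no measure of how stable the results are. The count of members with an IDR peak stayed at 1 under every window, under nearest starts, under the 75 strongest peaks and with ceh-44 and ceh-85 added, a choice made after seeing the data. The share of all genes ran from 0.456% with the 75 strongest peaks, and 0.501% with 500 bp windows, to 1.61% with 5 kb. With the highest 150 regions of replicate 1 the count was 2, beside 0.856% of all genes, the second gene being ceh-5. With those of replicate 2 it was 1, beside 0.886%. The count in the highest 1000 of both replicates became 2 with 5 kb windows, beside 1.5% of all genes, up from 0.831% with 2 kb windows. There ceh-5 had regions of rank 272 and 160 at 4897 bp from its start. By construction the count was higher in a single replicate, 4 in replicate 1, beside 5.37% of all genes, and 3 in replicate 2, beside 5.44%. The log2 difference in median signal, 0.16, was 0.10 to 0.11 in single replicates, 0.063 with 500 bp windows, 0.19 with 1 kb, 0.0069 with 5 kb, 0.12 with starts only and 0.095 with nearest starts, the last chosen after seeing the data; the cause was not tested. The count of members with a hexamer, 3, was 0 within 25 bp of the summit, beside 3.38% of all regions, and 11 within 100 bp, beside 14.1%. Replicate 1 alone gave 2, beside 7.52% of its regions, and replicate 2 alone gave 4, beside 6.75%. The best pooled region of the 28 named members was the same for 16 with 500 bp windows, 19 with 1 kb, 22 with 5 kb and 22 with starts only. No paired analysis was possible because there is 1 group. The missing depth limits every signal: its counting error is unknown.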

Other observations

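RefSeq names 2 further genes of the ceh- pattern that the Ensembl annotation does not carry under those names. ceh-44, a CUT-type gene that shares its locus with cone-1, had a pooled signal of 17.5 (rank 3110), with 10.1 in replicate 1 (rank 3328) and 7.31 in replicate 2 (rank 18092). ceh-85, annotated as a pseudogene, had 13.7 (rank 9550), with 6.38 in replicate 1 (rank 16606) and 13.5 in replicate 2 (rank 1358). Neither had an IDR peak.

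Among the homeobox genes outside the naming rule, several differed in rank between replicates. lim-7 had 15.6 in replicate 1 (rank 338) and 11.5 in replicate 2 (rank 3420), with a pooled signal of 13.1. ttx-3, which acts in the AIY interneurons, had 12.8 in replicate 1 (rank 1005) and 8.59 in replicate 2 (rank 11294) and no pooled region. unc-42 had 8.44 in replicate 1 (rank 7022) and 12.9 in replicate 2 (rank 1774), with a pooled signal of 17.9.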
